A study of Homo sapiens with 6 samples.

Results

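Kinesins are motor proteins that burn ATP to walk along microtubules or to take their ends apart. One set builds the spindle, moves chromosomes and cuts the daughter cells apart, and its genes are switched on as cells approach division. Another set carries vesicles, mitochondria and endosomes outward along the microtubules of resting and dividing cells, and several of its members are most abundant in neurons and neuroendocrine cells. The kinesin genes described here were taken by symbol: every row of the deposited expression table whose name starts with KIF and a digit, 33 rows of 16311. Of these, 9 encode mitotic kinesins, 11 transport kinesins and 10 kinesins with ciliary, signalling, microtubule-regulating or mixed roles. The other 3 rows encode no working motor: KIF1BP, a protein that binds kinesins, KIF9-AS1, an antisense RNA, and KIF28P, annotated as a pseudogene.

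RNA was sequenced from LNCaP, an established line of androgen-sensitive human prostate adenocarcinoma cells, in 3 libraries of cells that had received FIR to a total of 40 Gy and 3 libraries of untreated cells. The labels do not spell out FIR, and the series title ties it to radiation. They give neither the time between treatment and harvest nor how the replicate cultures were separated. The counts summed to 16542096, 15703483 and 16356183 reads in the FIR libraries and to 18928571, 21004697 and 16805679 in the untreated libraries. All 8 luminal prostate markers had rows, with KLK3, which encodes prostate-specific antigen, at 2282 ± 197 CPM in FIR cells and 2958 ± 163 CPM in untreated cells (SD, n = 3 each), and 0 of 5 immune markers had one. CPM is a gene's read count scaled by its library's TMM-adjusted total. Of these luminal markers 5 were higher in FIR cells, among them KRT8 (log2 fold change 0.80) and TMPRSS2 (0.49), 2 were lower and 1 did not pass. Across all 16311 genes 25.4% were called higher and 23.4% lower. The 5 measured fibroblast and endothelial markers summed to between 19.5 and 25.2 CPM in FIR libraries and between 56.8 and 70.3 CPM in untreated libraries, with VWF at -2.65 and COL3A1, which entered only through FIR libraries, at 3.46 on the log2 scale. Of these 5 markers 2 were higher in FIR cells, 2 lower and 1 not called, beside the same shares of all genes. DCN, PECAM1 and CDH5 had no row, and the part of these markers in the results was not tested.

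The symbols chose the members, but every gene with a row reached 0.6 CPM in at least 3 libraries. This was read from the counts, where the lowest third-highest CPM of any gene, on plain library totals, was 0.6045. A filter on the rows at that level was inferred from it. KIF18B, KIF4A and KIF18A reached that level in all 3 untreated libraries and in 0 FIR libraries, so they entered only through the group in which they were higher and had to differ. KIF20A and KIF26A reached it in 3 untreated libraries and 1 FIR library, and their rows needed untreated libraries too. KIF14 and KIF24 reached it in 2 FIR libraries and all 3 untreated ones. KIF21B reached it in 2 libraries of each group. The family was also taken up with results of these data known. The counts of members below are therefore descriptions of these libraries. The listed kinesins KIF2B, KIF4B, KIF15, KIF23, KIF5A, KIF17, KIF19, KIF25 and KIF26B had no row and are not analysed here. Why they had no row was not tested.

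The stretches around the gene starts of 8 kinesins are shown because most mitotic kinesins had letters there that most transport kinesins did not have. They are RefSeq sequences on GRCh38, read 5′ to 3′ on the gene's strand, from 80 bases before to 20 bases after the RefSeq start. Capitals mark CHR letters and CCAAT letters on either strand. The CHR, or cell cycle genes homology region, is the element bound by the MuvB core of the DREAM complex, which represses genes of division in resting cells, and CCAAT is the element of the factor NF-Y. KIF4A (chrX:70290024-70290123, plus strand), KIF11 (chr10:92593050-92593149, plus strand), KIF14 (chr1:200620732-200620831, minus strand), KIF18A (chr11:28108137-28108236, minus strand), KIF18B (chr17:44947754-44947853, minus strand) and KIF22 (chr16:29790671-29790770, plus strand) are mitotic kinesins with both elements. KIF20A (chr5:138179032-138179131, plus strand) is a mitotic kinesin with CCAAT only, and KIF5B (chr10:32056406-32056505, minus strand) is a transport kinesin. The mitotic kinesins KIF2C, which had neither element, and KIF20B are not printed.
KIF4A: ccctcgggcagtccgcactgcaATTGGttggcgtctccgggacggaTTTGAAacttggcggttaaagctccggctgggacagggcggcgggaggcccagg
KIF11: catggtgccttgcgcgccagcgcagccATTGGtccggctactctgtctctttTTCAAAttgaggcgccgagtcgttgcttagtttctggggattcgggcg
KIF14: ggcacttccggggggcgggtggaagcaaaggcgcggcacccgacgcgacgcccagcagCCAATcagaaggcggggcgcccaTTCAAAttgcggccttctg
KIF18A: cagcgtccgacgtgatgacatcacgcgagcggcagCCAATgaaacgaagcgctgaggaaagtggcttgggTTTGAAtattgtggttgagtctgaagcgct
KIF18B: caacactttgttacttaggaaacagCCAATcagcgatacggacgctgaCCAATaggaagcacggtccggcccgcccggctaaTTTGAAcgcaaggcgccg
KIF22: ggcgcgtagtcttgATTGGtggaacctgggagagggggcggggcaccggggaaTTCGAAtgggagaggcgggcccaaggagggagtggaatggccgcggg
KIF20A: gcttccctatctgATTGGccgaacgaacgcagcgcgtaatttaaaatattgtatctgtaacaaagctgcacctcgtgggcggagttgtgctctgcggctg
KIF5B: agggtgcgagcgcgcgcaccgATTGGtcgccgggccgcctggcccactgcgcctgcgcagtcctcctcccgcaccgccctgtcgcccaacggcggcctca

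All 9 measured mitotic kinesins fell in FIR cells, by factors from 2.15 for KIF22 to 324 for KIF18B, and in none of them did the FIR and untreated libraries overlap. Their median log2 fold change, FIR over untreated, was -4.42, where the median over all genes was 0.0082. Across all 16311 genes 23.4% were called lower, and 27.5% had every FIR library below every untreated one. In bulk RNA, fewer dividing cells and less RNA per dividing cell cannot be told apart. DESeq2 and limma-voom also called 9 of 9 lower, and 0 were higher by any of the tools or at an unadjusted p under 0.05 in edgeR. KIF18B, KIF4A and KIF18A entered only through the untreated libraries and had to differ, and the rows of KIF20A and KIF14 needed those libraries too. The counts, the median and the lack of overlap therefore only describe these rows.

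KIF18B and KIF20A had the lowest log2 fold changes of the 9. KIF18B, which trims the plus ends of astral microtubules (ENSG00000186185.13, chr17:44924709-44947711), had 1, 5 and 1 reads in the FIR libraries, against 1151, 1117 and 641 reads in the untreated libraries. Every FIR library was far below every untreated one. Its log2 fold change was -8.34 (SE 0.32, adjusted p = 2.3e-11), and -9.50 without FIR replicate 2, which held most of its remaining reads. KIF20A, which brings Aurora B to the central spindle (ENSG00000112984.12, chr5:138178719-138187723), had 3, 1 and 10 reads in the FIR libraries, against 1267, 1344 and 784 reads in the untreated libraries. FIR replicate 3 was the highest of its group yet far below the lowest untreated library. KIF20A fell by 7.60 on the log2 scale (SE 0.29, adjusted p = 2.1e-11), with -8.77 without FIR replicate 3.

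KIF4A, a chromokinesin that works with PRC1 on the central spindle (chrX:70290104-70420886), had 0.306, 0.518 and 0.314 CPM in FIR libraries, against 46.3, 47.0 and 35.7 CPM in untreated libraries. Its FIR level was 0.882% of the untreated one (log2 fold change -6.81, SE 0.22, adjusted p = 5.3e-12). KIF4B, a retrocopy of KIF4A, has no row, and how multi-mapping reads were counted is not given in the sources used here. KIF14, the partner of citron kinase at the midbody (chr1:200551497-200620751), had 0.612, 0.777 and 0.566 CPM in FIR libraries and 36.8, 35.7 and 27.5 CPM in untreated libraries. The 3 FIR libraries lay close together, and the log2 fold change was -5.67 (SE 0.21, adjusted p = 1.3e-11).

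KIF18A, KIF2C and KIF11 followed in the order of log2 fold change. KIF18A, which dampens the swinging of chromosomes, was scarce in both groups, at 0.489, 0.518 and 0.0629 CPM in FIR libraries, against 7.09, 8.87 and 7.41 CPM in untreated libraries (log2 fold change -4.42, SE 0.35, adjusted p = 8.1e-08). KIF2C, the depolymerase that frees wrongly attached microtubules, averaged 2.27 ± 0.113 CPM in FIR cells and 45.4 ± 6.50 CPM in untreated cells (SD, n = 3 each). KIF11, the motor that pushes the spindle poles apart, averaged 3.16 ± 0.626 CPM in FIR cells and 46.1 ± 5.69 CPM in untreated cells (SD, n = 3 each). Both stood at a small part of the untreated level, 4.99% for KIF2C and 6.85% for KIF11, in libraries that agreed among themselves.

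KIF20B and KIF22 fell least. KIF20B, a motor of cytokinesis, had 5.38, 4.41 and 3.33 CPM in FIR libraries, against 32.1, 28.3 and 23.7 CPM in untreated libraries, which is -2.68 on the log2 scale (SE 0.17, adjusted p = 8.3e-09). KIF22, the chromokinesin Kid that pushes chromosome arms away from the poles (chr16:29790719-29805385), had 59.2, 39.1 and 44.0 CPM in FIR libraries, against 120, 98.0 and 89.1 CPM in untreated libraries. It kept 46.4% of its untreated level (log2 fold change -1.11, SE 0.14, adjusted p = 9.0e-06), and its 95% interval, -1.40 to -0.81, lay apart from that of KIF20B, -3.05 to -2.31. Some exonic bases of these genes are shared with neighbours, 132 of the 3852 of KIF20A with BRD8 and 74 with CDC23, 77 of the 4573 of KIF4A with PDZD11, and 175 of the 3646 of KIF2C with AL592166.1. Untreated replicate 3 was the lowest untreated library for 8 of the 9 mitotic kinesins and the highest for 0 of them.

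**Figure D1:**
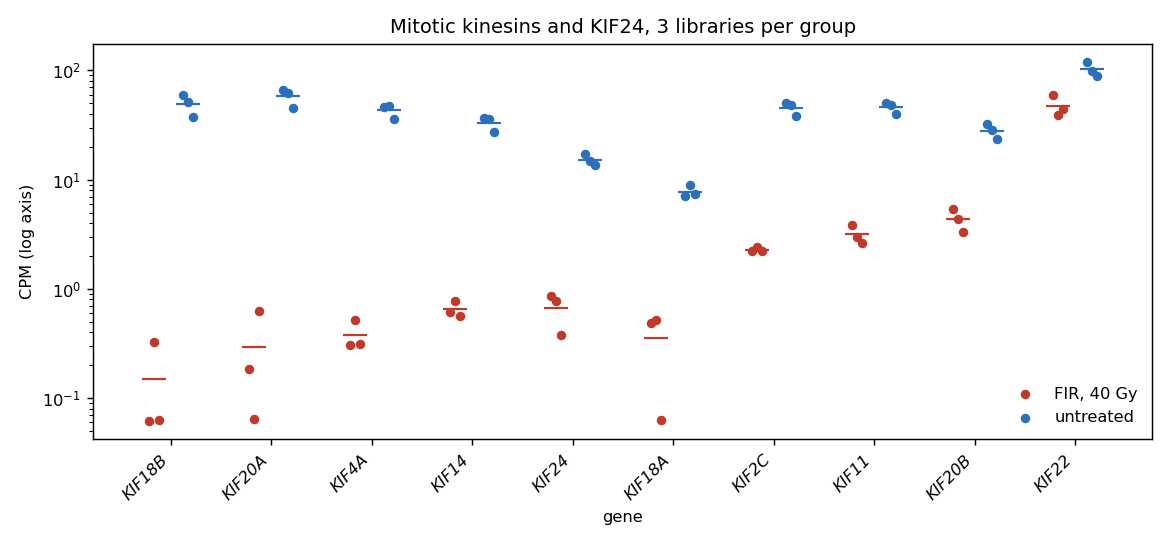
CPM on a log axis for the 9 mitotic kinesins and KIF24, with 1 point per library, a bar at each group's mean, and FIR (red) left of untreated (blue). Every FIR point lies below every untreated point of the same gene, with the widest gap for KIF18B and the narrowest for KIF22.

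CENPE, the kinesin that carries chromosomes to the spindle equator, averaged 2.37 ± 0.364 CPM in FIR cells and 41.1 ± 4.16 CPM in untreated cells (SD, n = 3 each), which is -4.11 on the log2 scale (SE 0.15, adjusted p = 1.6e-11). All 12 listed partners of mitotic kinesins were measured, and 11 of them fell, 0 rose and 1 missed the threshold, beside 23.4% of all genes called lower. Their median log2 fold change was -4.46. AURKB, ASPM and NUSAP1 reached 0.6 CPM in 0 FIR libraries and entered only through the untreated ones, PRC1 reached it in 1 FIR library and HMMR in 2, so the count and the median only describe these rows. Aurora kinase B (AURKB) and the spindle-pole protein ASPM changed most, at -7.06 (SE 0.25) and -6.93 (SE 0.28). The member that did not pass was MAPRE1, the plus-end protein EB1, at 130 ± 0.810 CPM in FIR cells and 145 ± 8.99 CPM in untreated cells (log2 fold change -0.15, SE 0.08, adjusted p = 0.11). MAPRE1 was named after its value was seen.

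Transport kinesins stayed near their untreated level or rose. Of 11 measured members 5 rose, 0 fell and 6 did not pass, against 25.4% of all genes called higher. The same 5 had every FIR library above every untreated one, as had 29.4% of all genes. None was lower at an unadjusted p under 0.05 in edgeR, and DESeq2 and limma-voom called 0 lower. Their median log2 fold change was 0.16, and 0.057 without untreated replicate 1. Between the classes, 5 of 11 transport kinesins and 0 of 9 mitotic ones rose, and no test was made because the classes were drawn up with these results known.

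KIF5C and KIF1A had the highest log2 fold changes of the transport kinesins. KIF5C, the neuron-enriched heavy chain of kinesin-1 (ENSG00000168280.17, chr2:148875227-149026759), had 44.2, 41.0 and 40.6 CPM in FIR libraries, against 19.2, 20.3 and 24.2 CPM in untreated libraries. The groups were well separated, at 0.98 on the log2 scale (SE 0.11, 95% interval 0.76 to 1.21, adjusted p = 2.2e-06). KIF1A, the carrier of synaptic vesicle precursors (ENSG00000130294.16, chr2:240713761-240821036), had 234, 230 and 252 CPM in FIR libraries, against 148, 134 and 121 CPM in untreated libraries. It was 1.78 times higher in FIR cells and already abundant in untreated ones (log2 fold change 0.83, SE 0.08, adjusted p = 1.2e-06).

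KIF13B, KIF13A and KIF3A rose by less. KIF13B, a carrier of signalling proteins (chr8:29067278-29263124), had 32.2, 30.2 and 29.2 CPM in FIR libraries, against 19.1, 18.8 and 24.1 CPM in untreated libraries (log2 fold change 0.57, SE 0.12, adjusted p = 9.1e-04). KIF13A, which moves recycling endosomes (chr6:17759183-17987635), had 51.9, 43.8 and 50.1 CPM in FIR libraries, against 35.4, 37.7 and 33.3 CPM in untreated libraries (log2 fold change 0.46, SE 0.09, adjusted p = 9.6e-04). In both genes every FIR library was above every untreated one. KIF3A, the kinesin-2 subunit that builds cilia with KIF3B, had 63.5, 61.3 and 62.8 CPM in FIR libraries, against 49.0, 53.4 and 54.7 CPM in untreated libraries. That rise was slight, 0.26 on the log2 scale (SE 0.08, adjusted p = 0.017), and the call was lost without untreated replicate 1 (adjusted p = 0.096), without untreated replicate 2 (adjusted p = 0.052) and under library-size scaling (adjusted p = 0.055).

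The 6 transport kinesins that did not pass were close to level, and their intervals limit how far they could have moved. KIF5B, the kinesin-1 heavy chain found in most cells, had 313, 303 and 263 CPM in FIR libraries, against 292, 321 and 303 CPM in untreated libraries, with a log2 fold change of -0.06 and a 95% interval of -0.23 to 0.11. KIF3B, the partner of KIF3A, was steady at 123.3, 121 and 121 CPM in FIR libraries and 119, 122 and 122 CPM in untreated libraries (95% interval -0.15 to 0.16). The 6 libraries of KIF3B hardly differed, so a change of the size seen in KIF5C lies outside its interval.

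KIF1C, a carrier of dense-core vesicles, averaged 327 ± 16.4 CPM in FIR cells and 326 ± 37.9 CPM in untreated cells (SD, n = 3 each; 95% interval -0.18 to 0.19). KIF1B, a carrier of mitochondria and vesicle precursors, averaged 157 ± 10.3 CPM in FIR cells and 169 ± 19.0 CPM in untreated cells (SD, n = 3 each; log2 fold change -0.11, adjusted p = 0.35), and it was called lower only without untreated replicate 3 (adjusted p = 0.028). KIF3C, a neuron-enriched partner of KIF3A, had a log2 fold change of 0.16 with an interval of -0.14 to 0.45. KIF16B, which positions early endosomes, had one of -0.13 with an interval of -0.42 to 0.16.

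**Figure D2:**
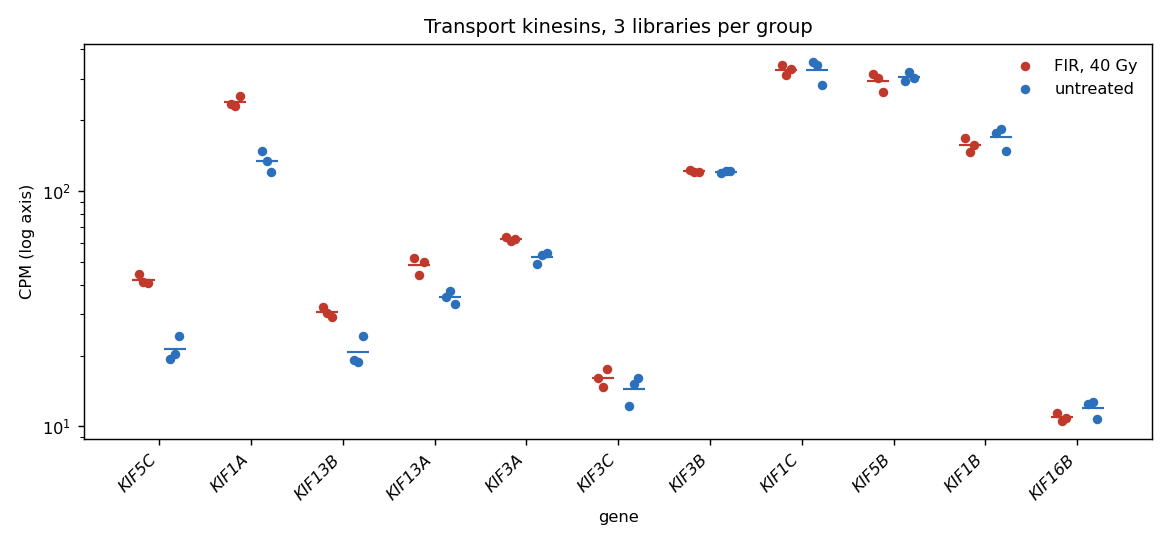
CPM on a log axis for the 11 transport kinesins, with 1 point per library, a bar at each group's mean, and FIR (red) left of untreated (blue). FIR points lie above all untreated points for KIF5C, KIF1A, KIF13B, KIF13A and KIF3A, and the groups overlap for the other 6.

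Within the kinesin families with several heavy chains, KIF5C and KIF1A had a higher share of their group's RNA in every FIR library than in any untreated one. Both also had the highest log2 fold changes of the transport kinesins, so their shares are not separate evidence of a rise. KIF5A, another heavy chain of kinesin-1, had no row and is left out of the share. Levels were compared per length, as RPKM (CPM per kilobase of the deposited exonic length). KIF5C made up 8.23%, 7.91% and 8.94% of the summed RPKM of KIF5B and KIF5C in FIR libraries, against 4.01%, 3.86% and 4.83% in untreated libraries. KIF1A made up 22.1%, 23.7% and 24.3% of the summed RPKM of KIF1A, KIF1B and KIF1C in FIR libraries, against 14.8%, 13.8% and 14.9% in untreated libraries. In both, every FIR library was above every untreated one, and the two-sided exact permutation test gave p = 0.1 for each, the smallest value that 3 against 3 libraries allow. KIF3C held 7.98% ± 0.652 of the summed RPKM of KIF3A, KIF3B and KIF3C in FIR cells and 7.59% ± 0.825 in untreated cells (SD, n = 3 each; exact permutation p = 0.6). These 3 shares were the only ones computed. Their exact permutation p-values were not adjusted, and 0 of 3 reached 0.05, which this design cannot reach.

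Per length, transport kinesins made up most of the RNA of the 30 kinesin genes taken by symbol in both groups. Their summed RPKM was 163, 153 and 152 in FIR libraries, against 147, 152 and 140 in untreated libraries, and the groups overlapped. Mitotic kinesins summed to 16.2, 11.4 and 12.2 RPKM in FIR libraries, against 103, 94.2 and 75.6 RPKM in untreated libraries. As a share of the summed RPKM of those 30 genes, which leaves out CENPE, KIFC2 and KIFC3, the mitotic class held 8.35%, 6.34% and 6.84% in FIR libraries, against 37.7%, 35.0% and 32.1% in untreated libraries. Most of what remained in FIR cells was KIF22, at 11.01 ± 2.43 RPKM in FIR cells and 23.7 ± 3.63 RPKM in untreated cells (SD, n = 3 each).

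In the order of mean RPKM, KIF5B and KIF1C ranked 1 and 2 in both groups, at 49.96 ± 4.58 and 38.1 ± 1.91 RPKM in FIR cells, against 52.1 ± 2.44 and 38.0 ± 4.42 RPKM in untreated cells (SD, n = 3 each). KIF1A stood at rank 4 of 30 in FIR cells and rank 11 in untreated cells. KIF20A stood at rank 27 in FIR cells and rank 5 in untreated cells, and KIF18B stood at rank 30 in FIR cells and rank 7 in untreated cells. Neighbours in the order often lay within each other's spread, as KIF3A and KIF1B did in FIR cells, at 9.11 ± 0.164 and 8.87 ± 0.579 RPKM (SD, n = 3).

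**Figure D3:**
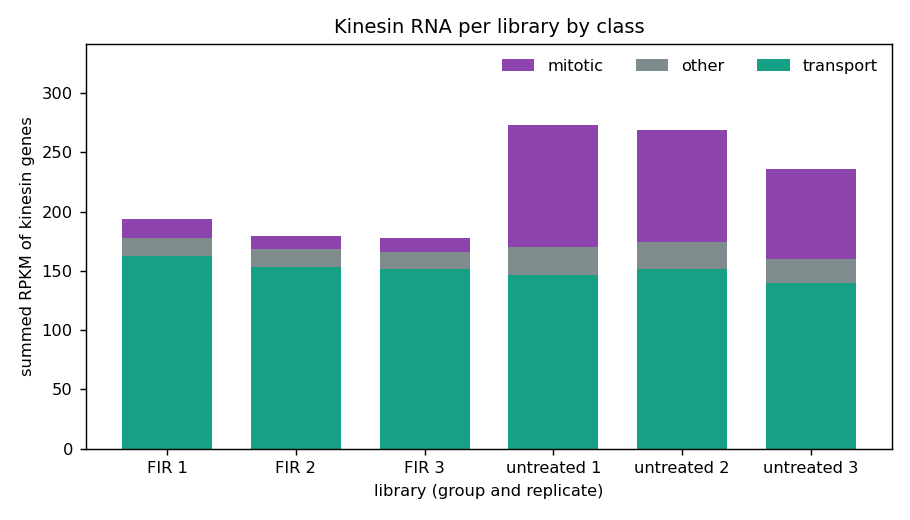
Stacked bars of summed RPKM of the 30 kinesin genes taken by symbol in each library, FIR libraries left and untreated libraries right, split into mitotic (top), other (middle) and transport (bottom) kinesins. The transport part is of similar height in all 6 bars, and the mitotic part is 11.4 to 16.2 RPKM in FIR bars and 75.6 to 103 RPKM in untreated bars.

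The 10 kinesins of other roles held 5 that fell, 0 that rose and 5 that missed the threshold, where 23.4% of all genes were called lower and 25.4% higher. Their median log2 fold change was -0.39. At an unadjusted p under 0.05, 7 were lower and 0 higher, and DESeq2 and limma-voom called 5 lower and 0 higher. KIF24, a centriolar depolymerase that holds back cilium formation (chr9:34252381-34311371), had 14, 12 and 6 reads in FIR libraries, against 326, 319 and 231 reads in untreated libraries. Its log2 fold change was -4.48 (SE 0.24, adjusted p = 9.9e-10).

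KIF7, a ciliary regulator of Hedgehog signalling (chr15:89608789-89655467), had 1.04, 0.713 and 0.692 CPM in FIR libraries, against 5.42, 4.88 and 1.87 CPM in untreated libraries, which is -2.31 on the log2 scale (SE 0.39, adjusted p = 1.8e-04). Untreated replicate 3 stood well below the other untreated libraries. Of its 5017 exonic bases 589 are shared with TICRR, a replication gene on the opposite strand whose log2 fold change was -5.24, and the strand setting of the counting is not given in the sources used here, so reads of the pair cannot be told apart there. KIF26A, scarce at 11, 2 and 9 reads in FIR libraries and 38, 25 and 13 reads in untreated libraries, passed with an adjusted p of 0.026 and lost the call without FIR replicate 2 (adjusted p = 0.097) or untreated replicate 1 (adjusted p = 0.13).

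KIF9, a motor of motile cilia, had 11.9, 8.49 and 9.12 CPM in FIR libraries, against 14.2, 14.2 and 14.9 CPM in untreated libraries (log2 fold change -0.55, SE 0.15, adjusted p = 0.0064). It shares 870 exonic bases with KIF9-AS1 on the opposite strand, whose own log2 fold change was -0.12 (SE 0.21, adjusted p = 0.67). With KLHL18, also on the opposite strand, KIF9 shares 178. KIF2A, a depolymerase of spindle poles and of neurite branches, averaged 28.9 ± 2.44 CPM in FIR cells and 37.7 ± 1.93 CPM in untreated cells (SD, n = 3 each), a fall of 0.38 on the log2 scale (SE 0.10, adjusted p = 0.0042). Of its 4774 exonic bases 428 are shared with IPO11, an importin gene on the same strand with a log2 fold change of -0.78. With DIMT1, on the opposite strand and at -0.26, it shares 216. The fall of KIF2A was thus much smaller than that of KIF2C, its mitotic relative, whose interval was -4.65 to -3.99.

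KIF21A, which stops microtubule growth at the cell cortex, and KIF27, a relative of KIF7, sat at the threshold. KIF21A had a log2 fold change of -0.27 (adjusted p = 0.061) and was called lower without untreated replicate 3 (adjusted p = 0.0012) and under library-size scaling (adjusted p = 0.027). KIF27 had one of -0.40 (adjusted p = 0.058), and it was called lower in 5 of 14 alternatives with adjusted p from 0.026. It was the only one of the 33 rows for which the authors' deposited table differs from the call here, with an adjusted p of 0.048 in that table.

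The scarce KIF12, KIF6 and KIF21B, at means between 0.807 and 3.45 CPM, and the rows without a motor did not pass. KIF1BP averaged 70.5 ± 5.25 CPM in FIR cells and 76.4 ± 3.202 CPM in untreated cells (SD, n = 3 each; 95% interval of the log2 fold change -0.29 to 0.06). KIF28P had a log2 fold change of 0.25, with 45, 18 and 16 reads in FIR libraries and 26, 23 and 30 reads in untreated libraries, and its groups overlapped.

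**Figure D4:**
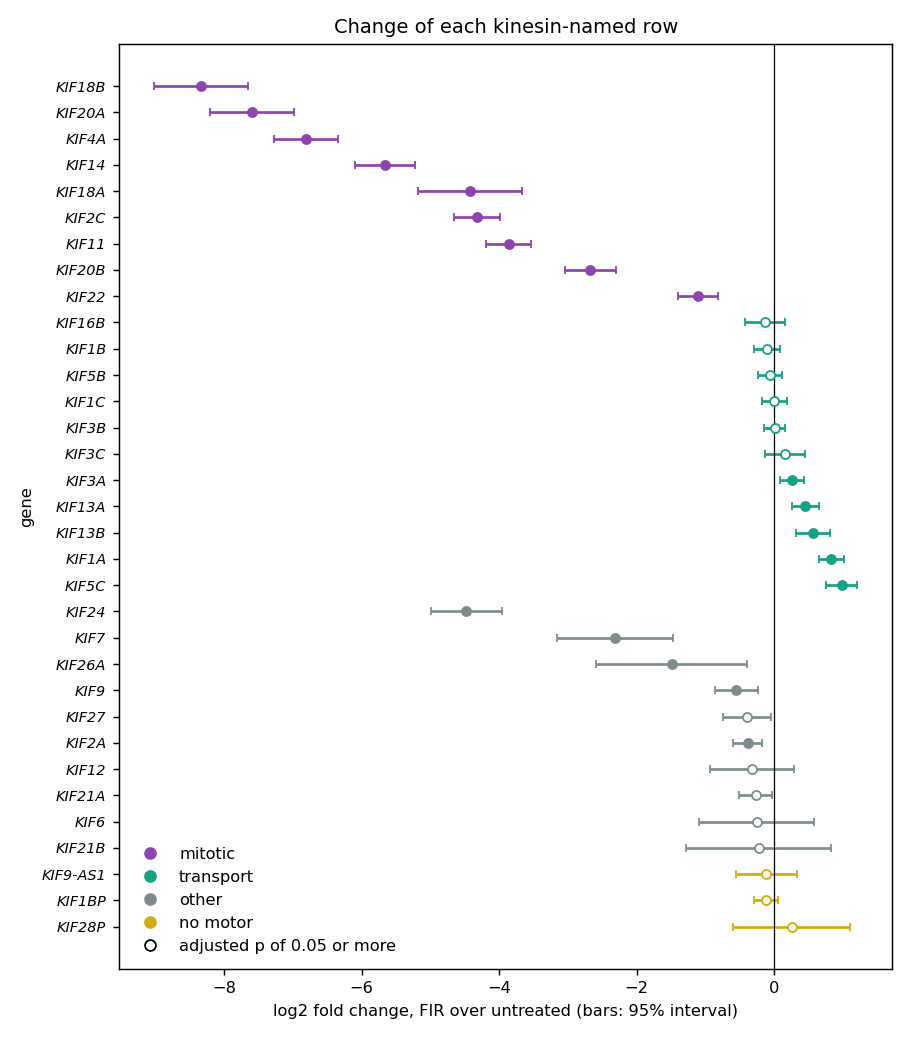
Log2 fold change, FIR over untreated, of the 33 kinesin-named rows with 95% intervals from edgeR, grouped by class and filled where the adjusted p was below 0.05. Mitotic kinesins run from -8.34 to -1.11 and transport kinesins from -0.13 to 0.98. The classes were drawn up with these results known. KIF2A, a depolymerase of spindle poles placed among the other kinesins, is at -0.38.

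Subunits and cargo adaptors of the transport motors were read from a list of 23 names, of which 21 had rows. The list holds 3 names of 1 gene, KIF1BP. There were 8 that rose, 1 that fell and 12 that missed the threshold, where 25.4% of all genes were called higher and 23.4% lower. Their median log2 fold change was 0.19. KIFAP3, the third subunit of kinesin-2, had 56.0, 57.5 and 47.8 CPM in FIR libraries, against 24.4, 25.5 and 30.1 CPM in untreated libraries. It rose by 1.01 on the log2 scale (SE 0.11, adjusted p = 1.5e-06), while KIF3A rose by 0.26 and KIF3B had 0.01. HAP1, an adaptor of neurons, was scarce at 1.53, 2.27 and 0.880 CPM in FIR libraries and 2.35, 3.30 and 4.26 CPM in untreated libraries, and fell by 1.08 on the log2 scale (SE 0.33, adjusted p = 0.015), a call lost without FIR replicate 3 (adjusted p = 0.071). The JNK-interacting scaffolds MAPK8IP3 and MAPK8IP1, which link kinesin-1 to cargo and were named after their values were seen, stood at 0.98 (SE 0.07) and 0.89 (SE 0.09). The light chains KLC1 and KLC2, also named afterwards, had 0.19 and 0.14 and did not pass.

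Motors that move toward the minus end, and the kinesins named outside the rule, were measured beside them. Of 4 kinesins with other symbols 3 had rows, and CENPE fell while KIFC3 and KIFC2 rose. KIFC2 averaged 95.1 ± 13.7 CPM in FIR cells and 62.1 ± 8.79 CPM in untreated cells (SD, n = 3 each). Its log2 fold change was 0.62 (SE 0.12, adjusted p = 4.5e-04), and it reached 0.6 CPM in every library. Of 21 measured genes of dynein and dynactin, of 22 listed, 10 rose, 2 fell and 9 missed the threshold, again beside 25.4% of all genes called higher and 23.4% lower. Their median log2 fold change was 0.28, and DYNC1I1, one of those that rose, needed FIR libraries for its row. The 2 that fell, named after their values were seen, were DCTN6 at -0.38 (SE 0.12) and DYNLL1 at -0.30 (SE 0.07). DYNC1H1, the dynein heavy chain, had 689, 654 and 735 CPM in FIR libraries, against 518, 494 and 408 CPM in untreated libraries (log2 fold change 0.55, SE 0.09, adjusted p = 1.1e-04). DYNLRB1, a dynein light chain, rose by 0.51 (SE 0.11, adjusted p = 0.0011). KIFC3, a minus-end kinesin, was scarce, at 2.998, 1.81 and 2.45 CPM in FIR libraries and 0.417, 0.371 and 0.584 CPM in untreated libraries, and its log2 fold change was 2.41 (SE 0.37, adjusted p = 7.1e-05). It reached 0.6 CPM in 3 FIR libraries and 0 untreated ones, so it entered only through the group in which it was higher and had to differ.

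The letters around the gene starts were also counted by class. RefSeq windows of 300 bases, from 250 before to 50 after a start, matched 29 of the 33 rows, and genes with several starts were counted once. CHR letters (TTTGAA or TTCGAA, either strand) stood in the windows of 7 of 9 mitotic kinesins, 1 of 10 transport kinesins and 1 of 8 other kinesins, against 15.1% of the 10503 tested genes that had a window. CCAAT stood in 8 of 9, 4 of 10 and 3 of 8, against 43.0%. Among genes called lower by at least 16-fold, which are 0.852% of all genes and include mitotic kinesins, 109 had a window, and 50.5% of these held CHR letters and 75.2% held CCAAT. The letters are thus not particular to kinesins. E2F letters (TTTCCCGC, TTTGGCGC, TTTGCCGC or TTTCGCGC, either strand) stood in 0 of 9, 0 of 10 and 0 of 8, against 6.41%, which says only that these letters are not in these windows. CHR and CCAAT letters did not overlap in the stretches printed above.

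Positions were counted from the RefSeq start, which is the deposited first base in KIF4A, KIF11, KIF14, KIF18A and KIF5B, 62 bases upstream of it in KIF18B, and downstream of it in KIF22 and KIF20A. Stretches of the bases after the start were also looked up in transcripts of the same gene. Of 35 stretches 0 were found for KIF11, 0 for KIF18B and 18 for KIF14, and all were found for the other printed genes. The first CHR base lay 34 bases before the start in KIF4A, 28 in KIF11, 27 in KIF22 and 10 in KIF18A. In KIF14 and KIF18B it was base 2 and base 3 counted from the RefSeq start, which in KIF18B is upstream of the deposited exons. In KIF20B, whose stretch is not printed, CHR letters began at bases 25 and 31. The RefSeq start of KIF20B lies 20 bases upstream of its deposited first base. In KIF5B the first CHR base lay 140 bases before the start, outside the printed stretch. KIF2C had neither motif, and KIF20A had CCAAT only, at 94 and 67 bases before the start. Their log2 fold changes were -4.32 and -7.60. Mitotic kinesins with both ran from -8.34 in KIF18B to -1.11 in KIF22, and a link between letters and fall was not tested. KIF24 was the other kinesin with CHR letters, but its RefSeq start lies 17897 bases upstream of the deposited exons of the gene. A match is a description of letters and not evidence that a factor binds there.

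**Figure D5:**
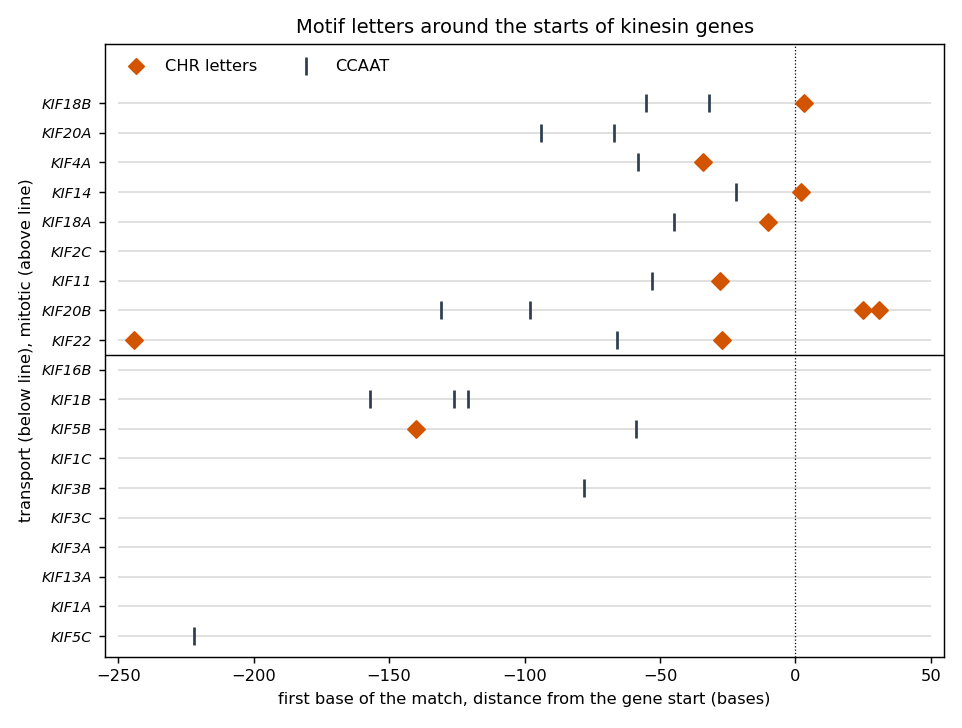
First base of each match to CHR letters (diamonds) and CCAAT (bars), in bases from the RefSeq start, for 9 mitotic (upper) and 10 transport kinesins (lower); several starts of a gene are overlaid, and both KIF22 diamonds are 1 site seen from 2 starts. Diamonds sit within 34 bases of a start in 7 mitotic kinesins and at 140 bases before it in KIF5B alone among the transport kinesins.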

How the data were processed

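RNA sequencing of 3 FIR and 3 untreated LNCaP libraries was analysed from 1 table. It holds raw counts for each gene in each library, as the authors deposited them. Beside them the authors deposited log2 fold changes, log2 values of CPM and RPKM, and p-values with their adjustment, per the file headers. Tools named in the submitters' processing notes, with no role, are STAR 2.5, bcl2fastq, Subread 1.6.2 with featureCounts, and edgeR 3.20.8, and the build is hg38. Annotation, strand and multi-mapping settings were not stated there.

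Counts were TMM-scaled and fitted in edgeR 4.0.16 (R 4.3.3) with glmQLFit and glmQLFTest, group as the only term, with Benjamini-Hochberg adjustment over all 16311 genes and a threshold of 0.05. "Called", "rose" and "fell" refer to this threshold. filterByExpr (minimum count 10) removed 0 genes. The SE of a log2 fold change was obtained from its F statistic, and 95% intervals from t quantiles. Alternatives used DESeq2 1.42.0, limma-voom 3.58.1, other scalings and filters, the replicate number as a block, and each library left out.

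Members, classes and lists were chosen with earlier results of these data known. Every kinesin-named row is named. Each other list contributes the 2 called genes that changed most and averaged 1 CPM or more. Gene positions are on hg38, from the table. No libraries of a group agreed within sampling noise. P-values reflect only the spread among these libraries, and that spread may be technical.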

Additional observations from a re-analysis of the deposited data

How the results depend on the processing

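Of the 19 kinesin rows called, 17 kept their call in each of 14 alternatives, the exceptions being KIF3A and KIF26A; KIF26A did not pass the filter of 1 CPM in 3 libraries and has 13. All 9 mitotic kinesins stayed lower in each alternative. For KIF18B, KIF4A and KIF18A, which entered only through the untreated libraries, this was set in advance. The count of transport kinesins called higher was 4 to 5 and that called lower 0 to 1 with each library left out. The mitotic median ranged from -4.77 to -4.30 and the transport median from 0.057 to 0.22 with each library left out. Shares from raw counts, with no length correction, differed between groups by 6.05 percentage points for KIF5C and 11.7 for KIF1A, against 4.13 and 8.87 per length. The KIF3C difference was 0.387 and ranged from -0.073 to 0.724 with each library left out. Signs turned only in rows that were not called. KIF1C stood at -0.012 under RLE scaling, -0.050 under library-size scaling, -0.012 in DESeq2 and -0.0088 with the filter. KIF3B stood at -0.0079, -0.048, -0.0079 and -0.0051 in the same settings. With each library left out KIF1C ranged from -0.11 to 0.057, KIF3B from -0.014 to 0.013, KIF5B from -0.11 to 0.013, KIF21B from -0.82 to 0.17, KIF9-AS1 from -0.24 to 0.049 and KIF28P from -0.35 to 0.51. The cause was not tested. A fit with replicate number entered as a block gave 3988 genes higher and 3668 lower, and this replicate block changed no call of a kinesin row. Deviations of same-numbered libraries from their group means correlated at 0.03, -0.05 and -0.07. No common deviation was seen, which cannot tell whether same-numbered cultures shared an origin. Library-size scaling gave 3685 genes higher and 4346 lower, against 4136 and 3811. The no-filter setting, counted among the 14, repeated the main fit because filterByExpr had removed 0 genes, so it could change no call. Falls to 10 or fewer reads per library, as in KIF18B and KIF20A, rest on few reads, and their size is limited by depth.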
